A study of Rattus norvegicus with 6 samples.

Results

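Amino acid transporter genes were examined in cells of PC12, a rat line that arose in a tumor of adrenal chromaffin cells, a pheochromocytoma. The members were the protein-coding genes of the deposited table whose symbols place them in the solute carrier families Slc1, Slc3, Slc7, Slc36, Slc38 and Slc43, and 39 of the 20609 genes in the table met this rule. Of the 42 rat symbols of these families that were looked up, 3 had no matching row (Slc1a6, Slc38a5 and Slc38a11) and are not analysed here. The study compared 3 libraries of PC12 cells transfected with a control plasmid (control) with 3 libraries of PC12 cells transfected to overexpress PCBP-1 (PCBP1-OE), a poly(rC)-binding protein that acts on RNA, to learn which genes respond to it. The PCBP-1 plasmid carried an EGFP tag, no other treatment or allele is named, and the sources used here do not say whether the control plasmid encoded EGFP. The study describes both plasmid transfection and stable overexpression, and it is not clear which applies to these libraries. Nothing in the labels says that the libraries came from separate cultures, so the p-values measure only the spread between these libraries.

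Amino acids cross membranes mainly through carriers, and the families differ in substrate and in the force that drives them. Slc1 proteins couple glutamate, or small neutral amino acids, to sodium. Slc7 proteins are either cationic amino acid transporters or light chains that reach the cell surface only when bound to a heavy chain of the Slc3 family, as in the exchanger of large neutral amino acids made of Slc7a5 and Slc3a2, or the cystine and glutamate exchanger made of Slc7a11 and Slc3a2. Slc38 proteins carry glutamine and other neutral amino acids with sodium, several Slc36 proteins carry small amino acids with protons, and Slc43 proteins are facilitated carriers. Cells adjust several of these genes to amino acid supply through the transcription factor ATF4, and lysosomal members report amino acids to the kinase complex mTORC1.

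A pair of facts about all 6 libraries bears on every value below. The libraries held 19730209 to 22315623 counts on genes, of which 0.147% to 0.165% fell on the 39 members. Chromaffin markers were low for cells labelled PC12: 3 of the 9 with a row had enough counts for a test (Scg2, Th and Slc18a1), Chga had at most 3 counts in any library and Dbh at most 5, whereas Sox10, a transcription factor of the neural crest and of glia, had 7160 to 9007 counts and Pdgfra, listed among fibroblast markers, 3939 to 4941. The summed chromaffin list was at 151 to 180 CPM (counts scaled to a common library total) in controls and 139 to 153 in PCBP1-OE, the glial list at 402 to 421 and 374 to 387, the fibroblast list at 225 to 230 and 200 to 212, the leukocyte list at 6.87 to 7.86 and 6.18 to 6.35, the adrenal cortex list at 2.32 to 2.73 and 1.99 to 3.62, and the endothelial list at 4.07 to 5.62 and 4.95 to 5.90. Single genes made up most of the chromaffin, glial and fibroblast sums. In controls Scg2 was at 141 to 170 CPM, Sox10 at 389 to 408 and Pdgfra at 220 to 226. These sums are thus not levels of whole lists. No gene of these marker lists passed the test used below, Ptprc was at 0 to 3 counts, and the part of these levels in the results was not tested. In bulk RNA a smaller share of cells and less RNA per cell cannot be told apart. No row was matched to Pcbp1, so its overexpression was not checked here. The study itself reports more PCBP-1 in the PCBP1-OE cells, by RT-qPCR and by western blot.

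Sequences are shown for the promoter of Slc38a2, the member that rose, and for the places where other promoters hold the letters TGATGNAA, the core of the composite element that ATF4 binds together with C/EBP factors at genes of the amino acid response. They were read from RefSeq windows on the build GRCr8, while the counts were made on Rnor_6.0. The windows matched 30 of the 39 members, Slc1a1, Slc1a5, Slc38a10, Slc38a3, Slc43a3, Slc7a13, Slc7a2, Slc7a3 and Slc7a4 not among them. The Slc38a2 window (chr7:129742570-129742869, minus strand, 300 bases, 72.3% G and C against a median of 51.7% over all windows) ends 50 bases after the annotated start and held no TGATGNAA on either strand, which says only that these letters are not in this window.
Slc38a2: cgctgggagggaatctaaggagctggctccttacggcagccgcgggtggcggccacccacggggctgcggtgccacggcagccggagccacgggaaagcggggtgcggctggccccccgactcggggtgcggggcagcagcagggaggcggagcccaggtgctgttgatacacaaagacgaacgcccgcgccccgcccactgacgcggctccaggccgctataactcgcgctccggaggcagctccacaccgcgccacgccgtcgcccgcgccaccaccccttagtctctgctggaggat

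The motif was found on 1 strand or the other in 3.98% of all 33469 windows. Among the members it was present in 3 of 34 windows (8.82%), and in 3 of the 30 matched genes, namely Slc7a1, Slc1a4 and Slc38a1. A gene can have more than 1 window, so the counts per gene are not on the scale of the share of windows. Of the comparison lists described further on, 4 of 25 matched amino acid response genes and 7 of 17 matched aminoacyl-tRNA synthetase genes held it, against 0 of 26 genes of amino acid sensing and 0 of 24 transporters of other families. The windows around the motif are given below on the strand of the gene, with the motif, or its reverse complement, in capitals. Trib3 is shown with the members because it rose in PCBP1-OE and held the motif. No site was found for Atf5, Ddit3 or Sesn2, which also rose. Not every gene of the amino acid response list had a window, so for these genes an absent site and an absent window are not told apart. Chac1, which did not pass the test used below, held the motif and is not shown. Whether the motif goes with a rise was not tested. The capitals of Slc7a1 begin 30 bases upstream of the start (chr12:11664442-11664481, plus strand), those of Slc1a4 at 235 bases (chr14:98761774-98761812, minus strand), those of Slc38a1 at 142 bases (chr7:129681520-129681559, minus strand) and those of Trib3 at 21 bases (chr3:161275531-161275570, minus strand). A match of letters is a description of the promoter and not evidence of binding.
Slc7a1: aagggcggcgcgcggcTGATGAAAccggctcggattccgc
Slc1a4: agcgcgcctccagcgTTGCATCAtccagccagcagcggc
Slc38a1: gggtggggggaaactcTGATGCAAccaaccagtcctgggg
Trib3: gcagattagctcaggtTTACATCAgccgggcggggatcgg

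Of the 39 members, 21 had enough counts for a test and are called expressed here, and 18 did not. The filter, edgeR's filterByExpr, asks for about 10 counts in at least 3 libraries. By family, the expressed members were Slc1a1, Slc1a4 and Slc1a5, the heavy chain Slc3a2, the light chains Slc7a5, Slc7a6, Slc7a7 and Slc7a11, the cationic transporters Slc7a1, Slc7a2, Slc7a3 and Slc7a4, then Slc38a2, Slc38a3, Slc38a6, Slc38a7, Slc38a9 and Slc38a10, and finally Slc36a1, Slc43a2 and Slc43a3. Mean counts were at least 1000 per library in 8 of them and under 100 in 5. Slc3a2 held 42.6% to 45.1% of all counts on the members in each library. Counts depend on transcript length, lengths were not used here, and so levels are not ranked between genes. In the plot of counts of all members, the expressed and the untested members are seen side by side.

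**Figure D1:**
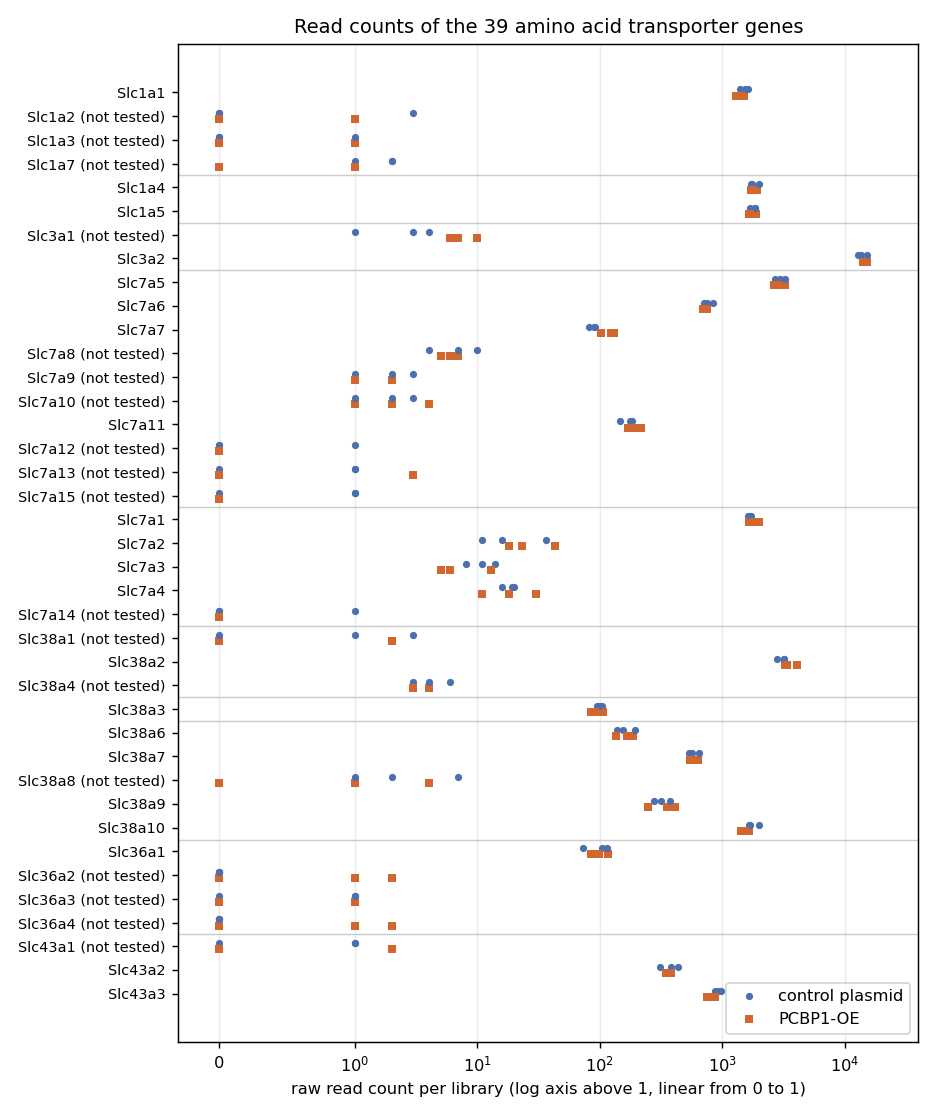
Raw read count of each of the 39 members (rows, grouped by role with grey lines) in each library, on an axis that is logarithmic above 1 and linear from 0 to 1. Blue circles are the 3 control libraries and orange squares the 3 PCBP1-OE libraries. The 18 untested members reach at most 10 counts in a library, while Slc3a2 has 12784 or more in all 6.

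The untested members had 1 to 39 counts in all 6 libraries together. Among the glutamate transporters, Slc1a2 and Slc1a3, the carriers typical of astrocytes, had totals of 4 and 2 counts, and Slc1a7, known from the retina, had 7. Slc7a8, a light chain for neutral amino acids, had counts of 10, 4 and 7 in the control libraries against 6, 7 and 5 in the PCBP1-OE libraries. The light chains Slc7a9, Slc7a10, Slc7a12, Slc7a13 and Slc7a15 had totals of 10, 13, 1, 5 and 2 counts, and Slc7a14 had 1. In the Slc38 family, the glutamine carriers Slc38a1 and Slc38a4 had totals of 6 and 23 counts and Slc38a8 had 15. Slc36a2, Slc36a3 and Slc36a4 had 3 counts each, and Slc43a1 had 4. A count of 0 in a library allows up to 3 counts, or 0.134 to 0.153 CPM at these depths, for counting error only. Genes with such counts were at or near the limit of detection. Slc7a8 (4 to 10 counts per library) and Slc38a4 (3 to 6) were detected in every library, at a low level. Among the untested members a fold change is given for Slc3a1 only.

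Slc3a1, the heavy chain that partners Slc7a9 in kidney and gut, was the untested member whose groups did not overlap. It had 4, 1 and 3 counts in the control libraries against 10, 6 and 7 in the PCBP1-OE libraries. All 3 PCBP1-OE libraries were thus above all 3 controls, at counts too low for the filter. It was 1 of 18 untested members. The groups did not overlap in 30.6% of all tested genes, and the share among untested genes was not counted. Without the filter its log2 fold change was 1.50 (SE 0.72) with an adjusted p of 0.201 by edgeR's quasi-likelihood test.

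Of the 21 expressed members, 2 passed an adjusted p of 0.05 (edgeR's quasi-likelihood test, Benjamini-Hochberg adjustment over all 12624 genes tested), beside 9.45% of all tested genes. The 2 calls are 9.52% of the expressed members, and a share this near the background is no result about the members as a group. Slc38a2, the sodium-coupled carrier of glutamine, alanine and serine known as SNAT2, was higher in PCBP1-OE, and Slc38a10, a less studied carrier of the same family, was lower. No member changed by 2-fold or more, the limit of the study for a differentially expressed gene, which 0.19% of all tested genes reached together with the adjusted p. Their median log2 fold change was 0.037, beside 0.0029 over all genes, with 14 members above 0 and 7 below. At an unadjusted p under 0.05 there were 6 members, 4 higher and 2 lower, beside 28.4% of all tested genes, and in 6 members the groups did not overlap, 3 in each direction, beside 30.6%.

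**Figure D2:**
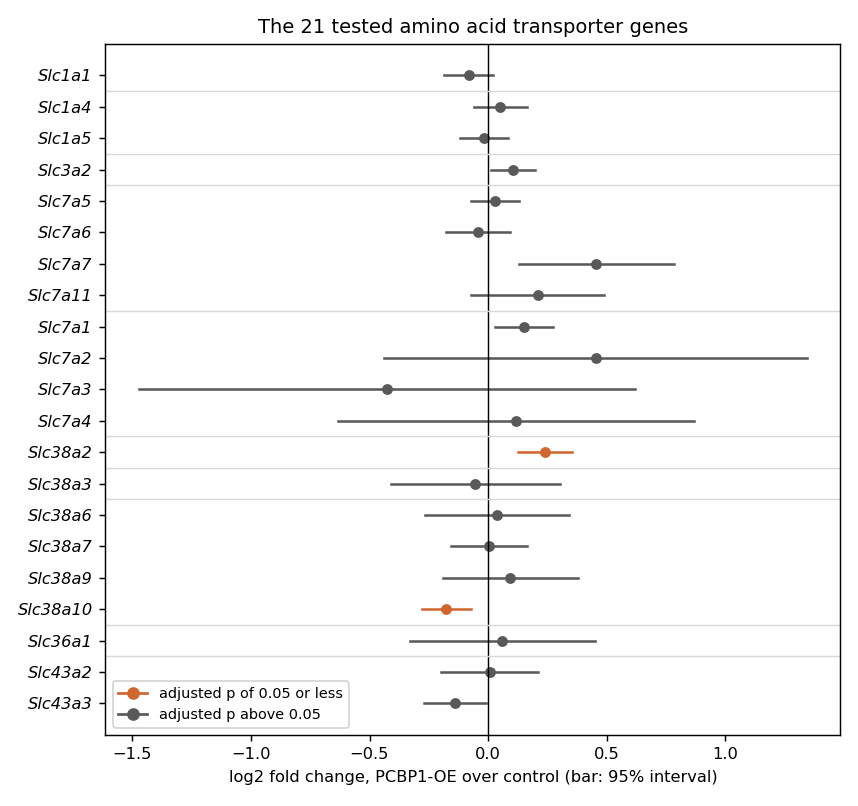
Log2 fold change of PCBP1-OE over control (points) with its 95% interval (bars) for the 21 expressed members, grouped by role with grey lines. Orange marks the 2 members with an adjusted p of 0.05 or less, Slc38a2 at 0.24 and Slc38a10 at -0.18. The widest bars belong to Slc7a2, Slc7a3 and Slc7a4, which had the fewest counts.

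Slc38a2 (ENSRNOG00000006305, chromosome 7) is the best known member of system A, the transport activity that cells raise when amino acids run short. Its level, in CPM scaled by the TMM method of edgeR, was 142, 152 and 144 in the control libraries against 184, 162 and 171 in the PCBP1-OE libraries. The groups did not overlap, and the nearest libraries, control replicate 2 and PCBP1-OE replicate 2, were 152 and 162. The means were 146 ± 5.23 and 172 ± 11 (SD over 3 libraries), which is a log2 fold change of 0.24 (SE 0.05, edgeR adjusted p = 0.0186), or 18.2% more, with a 95% interval of 0.13 to 0.36 on the log2 scale. The call was lost without control replicate 1 (adjusted p = 0.0937), control replicate 2 (0.0815) or PCBP1-OE replicate 1 (0.118) and when replicate number was blocked (0.12), the highest of 14 alternatives whose lowest was 0.000349, and the log2 fold change stayed between 0.19 and 0.29.

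Slc38a10 (ENSRNOG00000004604, chromosome 10) was at 83.7, 80.7 and 88.6 CPM in controls. In PCBP1-OE it was at 75.0, 75.9 and 73.3 CPM, below every control. The means were 84.4 ± 3.98 and 74.7 ± 1.35 (SD over 3 libraries), which is a log2 fold change of -0.18 (SE 0.05, edgeR adjusted p = 0.0415), or -11.4% with a 95% interval of -17.7% to -4.76%. This call was near the threshold. It was lost in each of the 6 fits that left out a library (adjusted p = 0.0515 to 0.128), with upper-quartile scaling (0.0643) and when replicate number was blocked (0.158), the highest of 14 alternatives whose lowest was 0.0224, while the log2 fold change stayed between -0.20 and -0.14.

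**Figure D3:**
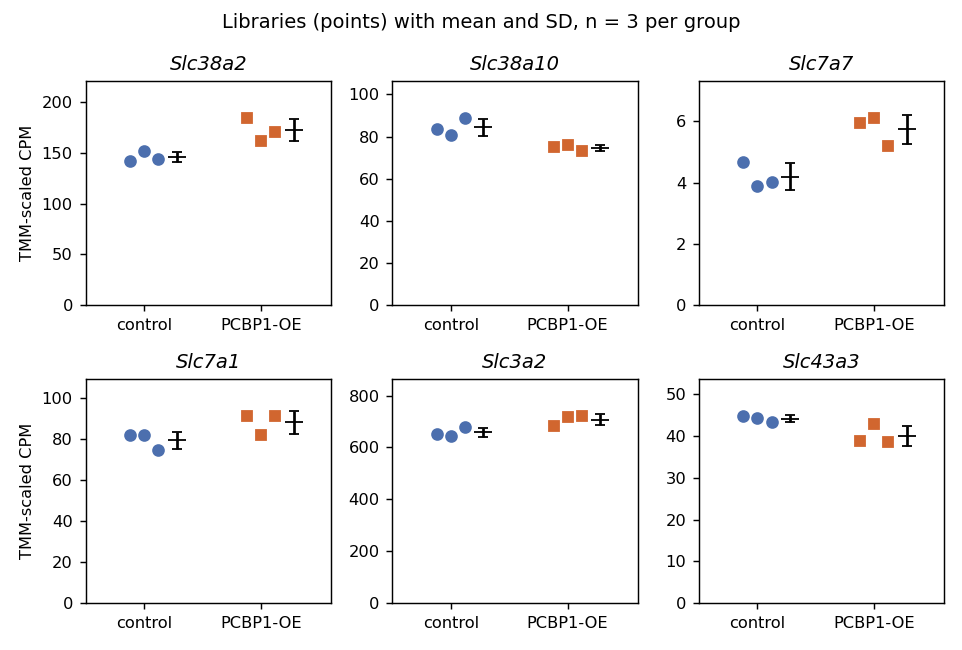
TMM-scaled CPM of each library (blue circles, control; orange squares, PCBP1-OE) with the group mean and SD (black, n = 3) for the 6 expressed members with an unadjusted p under 0.05, on axes that start at 0. The groups are apart in Slc38a2, Slc38a10, Slc7a7, Slc3a2 and Slc43a3. They overlap in Slc7a1, where control replicate 1 at 82.0 CPM is above PCBP1-OE replicate 2 at 81.9 CPM.

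**Figure D4:**
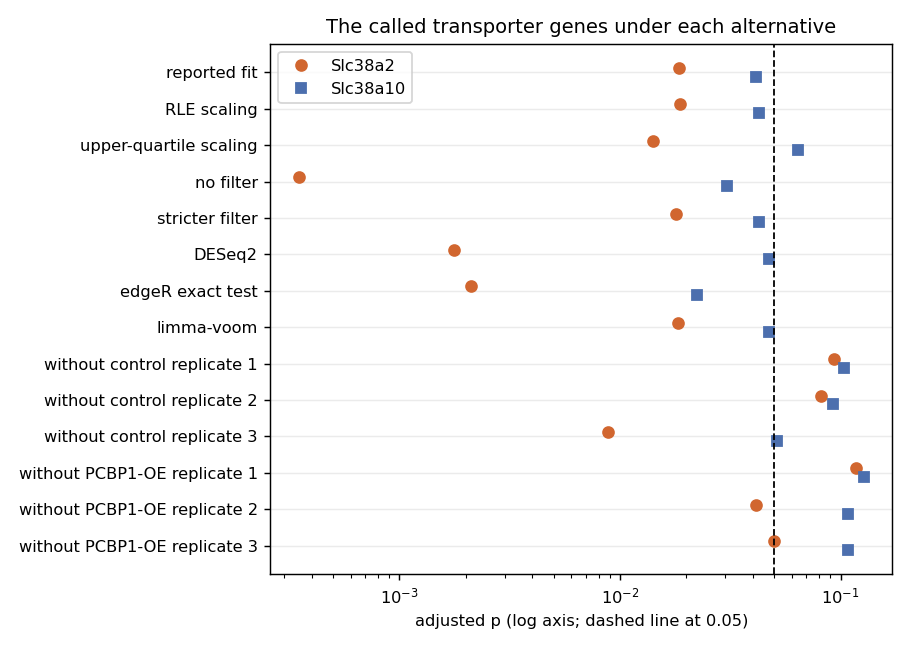
Adjusted p (log axis) of Slc38a2 (orange circles) and Slc38a10 (blue squares) in the reported fit and under 13 of the 14 alternatives, all but the replicate block, with a dashed line at 0.05. With other tools or filters both genes lie left of the line, while without 1 library Slc38a10 lies right of it in all 6 fits and Slc38a2 in 3.

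The other expressed Slc38 members did not pass the test. Slc38a9, a lysosomal carrier that senses arginine for mTORC1, was at 14.0, 15.1 and 16.6 CPM in the control libraries against 18.7, 17.4 and 12.7 in the PCBP1-OE libraries, so that PCBP1-OE held both the highest and the lowest library. Slc38a7, which exports glutamine and asparagine from lysosomes, had a log2 fold change of 0.0046 with a 95% interval of -0.16 to 0.16, so a change of over 12.1% upward or 10.2% downward lies outside the interval. Slc38a6 (log2 fold change 0.037, interval -0.27 to 0.34) and Slc38a3, a glutamine carrier of system N (-0.053, interval -0.41 to 0.30), were measured from 136 to 195 and from 85 to 106 counts per library and are less well resolved.

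Among the partners in heteromeric exchangers, the heavy chain Slc3a2 (ENSRNOG00000018487, chromosome 1), also known as CD98 or 4F2hc, was measured most precisely. It was at 652, 645 and 677 CPM in the control libraries against 684, 717 and 721 in the PCBP1-OE libraries. The groups did not overlap, but the nearest libraries, control replicate 3 and PCBP1-OE replicate 1, were 677 and 684. Its log2 fold change of 0.10 (SE 0.04) gave an edgeR adjusted p = 0.135, and it passed in 1 of 14 alternatives, without control replicate 3 (0.0483). The 95% interval was 0.725% to 14.7% more.

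Slc7a5 (ENSRNOG00000018824, chromosome 19), the LAT1 light chain for leucine and other large neutral amino acids, was at 138, 141 and 144 CPM in the control libraries against 147, 148 and 136 in the PCBP1-OE libraries. The groups overlapped, since PCBP1-OE held the lowest as well as the highest libraries. Its log2 fold change was 0.03 (SE 0.05, edgeR adjusted p = 0.744), with a 95% interval of -0.074 to 0.13 on the log2 scale. The ratio of Slc3a2 counts to Slc7a5 counts was 4.74, 4.58 and 4.69 in the control libraries against 4.64, 4.86 and 5.30 in the PCBP1-OE libraries, a difference of 0.077 on the log2 scale (p = 0.3 in an exact two-sided permutation of the libraries, where 3 against 3 cannot go below 0.1).

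Slc7a7 (ENSRNOG00000010296, chromosome 15), the light chain that exchanges cationic for neutral amino acids and whose loss in humans causes lysinuric protein intolerance, had a fitted change at the top of the expressed members, 0.46 on the log2 scale beside 0.45 for Slc7a2. It was at 4.69, 3.88 and 4.01 CPM in the control libraries against 5.94, 6.10 and 5.21 in the PCBP1-OE libraries, from 81 to 131 counts per library. All PCBP1-OE libraries were above all controls. The log2 fold change was 0.46 (SE 0.15, edgeR adjusted p = 0.0718), and it did not pass in any of 14 alternatives (adjusted p = 0.0599 to 0.23). Slc7a6, which has a like exchange activity, was at 36.1, 35.8 and 37.1 CPM in the control libraries against 33.5, 37.0 and 35.5 in the PCBP1-OE libraries, and its log2 fold change of -0.04 had a 95% interval of -0.18 to 0.09.

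Slc7a11 (ENSRNOG00000010210, chromosome 2), the xCT light chain that imports cystine for glutathione synthesis, was at 9.28, 7.04 and 7.80 CPM in the control libraries against 9.89, 9.22 and 8.73 in the PCBP1-OE libraries. Control replicate 1 lay within the PCBP1-OE range, while the other controls lay below it. Its log2 fold change of 0.21 (SE 0.13) gave an edgeR adjusted p = 0.314 and a 95% interval of -4.86% to 40.5%, measured from 147 to 218 counts per library.

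Among the cationic transporters, Slc7a1 (ENSRNOG00000000924, chromosome 12), the widely expressed arginine and lysine carrier CAT1, was at 82.0, 81.9 and 74.7 CPM in the control libraries against 91.3, 81.9 and 91.3 in the PCBP1-OE libraries. The groups overlapped, since control replicate 1 at 82.0 CPM was above PCBP1-OE replicate 2 at 81.9 CPM. The log2 fold change of 0.15 (SE 0.06) gave an edgeR adjusted p = 0.101. Slc7a2, the inducible arginine carrier of macrophages and liver, had 11, 16 and 36 counts in the control libraries against 23, 43 and 18 in the PCBP1-OE libraries. Slc7a3, a cationic carrier known from neurons, had 14, 8 and 11 counts in the control libraries against 5, 6 and 13 in the PCBP1-OE libraries. Both overlapped between groups, and had log2 fold changes of 0.45 (SE 0.41) and -0.43 (SE 0.49), and that of Slc7a2 was -0.011 without PCBP1-OE replicate 2 and 1.02 without control replicate 3. Slc7a4, for which transport has not been established, had 16 to 20 counts among controls and 11 to 30 among PCBP1-OE libraries.

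No member of the Slc1 family passed the test. Slc1a1, the neuronal carrier of glutamate and cysteine known as EAAT3, was at 71.3, 73.2 and 72.2 CPM in the control libraries against 68.4, 70.8 and 65.5 in the PCBP1-OE libraries. Its groups did not overlap, and its log2 fold change of -0.08 (SE 0.05) gave an edgeR adjusted p = 0.284. Its counts could include reads of an overlapping gene, Spata6l, since the strand setting of the counting is not known here, and the same holds for Slc38a6 with Trmt5 and for Slc36a1, Slc38a9 and Slc7a4 with pseudogenes or uncharacterised loci. Slc1a5, the glutamine exchanger ASCT2, was at 82.7 to 88.3 CPM in controls and 81.5 to 86.2 in PCBP1-OE, with a 95% interval of -7.77% to 6.09%. Slc1a4, the alanine, serine and cysteine carrier ASCT1, was at 83.1 to 89.3 and 87.0 to 95.4 CPM, with an interval of -3.97% to 11.9%.

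Slc36a1, a proton-coupled carrier of lysosomes and of the gut, was at 5.35, 3.50 and 5.08 CPM in the control libraries against 5.26, 4.91 and 4.34 in the PCBP1-OE libraries, and its groups overlapped. Slc43a3, which carries purine nucleobases rather than amino acids and belongs here by its family name, was at 44.8, 44.4 and 43.3 CPM in the control libraries against 38.8, 42.8 and 38.5 in the PCBP1-OE libraries. PCBP1-OE was below the controls in all libraries, with a log2 fold change of -0.14 (SE 0.06, edgeR adjusted p = 0.145). Slc43a2, the LAT4 carrier of branched-chain amino acids and phenylalanine, had a log2 fold change of 0.0063 with a 95% interval of -12.9% to 15.8%.

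The precision behind these values followed the counts. In the 8 members with at least 1000 counts per library the standard errors of the log2 fold change were 0.04 to 0.06, and in the 5 with under 100 they were 0.17 to 0.49. The 95% interval lay within 1.2-fold in either direction for 8 members, within 1.5-fold for 17 and within 2-fold for 19. The members whose interval reached beyond 2-fold were Slc7a2 and Slc7a3.

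Genes that work with the transporters were counted from 4 lists in the same fit. Amino acid transporters of other families, among them Slc6 carriers, mitochondrial Slc25 carriers and the vesicular glutamate transporters, had 14 testable genes of 25 with a row. None passed (0 by edgeR, 0 by DESeq2), and 1 had an unadjusted p under 0.05, the taurine carrier Slc6a6 (log2 fold change 0.42, SE 0.19). The list of amino acid sensing by mTORC1 at the lysosome had 33 testable genes, of which 3 were higher and 0 lower. In the list of cytosolic aminoacyl-tRNA synthetases 1 of 20 was higher and 0 lower. The list of the ATF4 amino acid response, with serine, proline and asparagine synthesis, had 4 of 24 higher and 0 lower. Over all tested genes 4.45% were called higher and 5% lower. The medians of the log2 fold change were 0.060, 0.025, 0.014 and 0.054 in the order given.

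In the amino acid response list, the genes that rose were Trib3, Atf5, Ddit3 and Sesn2. Trib3, a pseudokinase that restrains ATF4, was at 55.0, 54.5 and 55.1 CPM in the control libraries against 67.6, 71.6 and 73.0 in the PCBP1-OE libraries, a log2 fold change of 0.37 (SE 0.05, edgeR adjusted p = 0.00263), and it passed in all 6 fits that left out a library (0.000368 to 0.0216). Atf5, a transcription factor related to ATF4, was at 231, 230 and 239 CPM in the control libraries against 269, 280 and 285 in the PCBP1-OE libraries. Ddit3, which encodes CHOP, was at 403, 390 and 404 CPM in the control libraries against 452, 481 and 492 in the PCBP1-OE libraries. In all 3 genes the groups were apart, and Atf5 and Ddit3 had log2 fold changes of 0.25 each (standard errors 0.04 and 0.05, adjusted p = 0.00870 and 0.00978). Sesn2, a leucine sensor that stands in both the response list and the sensing list, was at 120, 125 and 140 CPM in the control libraries against 147, 158 and 144 in the PCBP1-OE libraries, with an adjusted p of 0.0372. Without control replicate 2 the adjusted p of Atf5 was 0.0697 and that of Ddit3 0.0692, and without PCBP1-OE replicate 2 that of Ddit3 was 0.0551. Sesn2 passed in 1 of the 6 fits, without control replicate 3 (0.00144), and was at 0.0584 to 0.184 in the others.

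Atf4 itself was at 935, 911 and 913 CPM in the control libraries against 969, 1010 and 1060 in the PCBP1-OE libraries (log2 fold change 0.14, SE 0.05, edgeR adjusted p = 0.0645). Asns, the asparagine synthetase, had a log2 fold change of -0.15 (SE 0.05, adjusted p = 0.0846), and Psat1 and Psph of serine synthesis had -0.11 and -0.18 (adjusted p = 0.114 and 0.0945). Those values lay on the other side of 0 from Trib3 and Ddit3 and did not pass the test. Of the 24 testable genes of the list, 15 had a log2 fold change above 0 and 9 below.

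**Figure D5:**
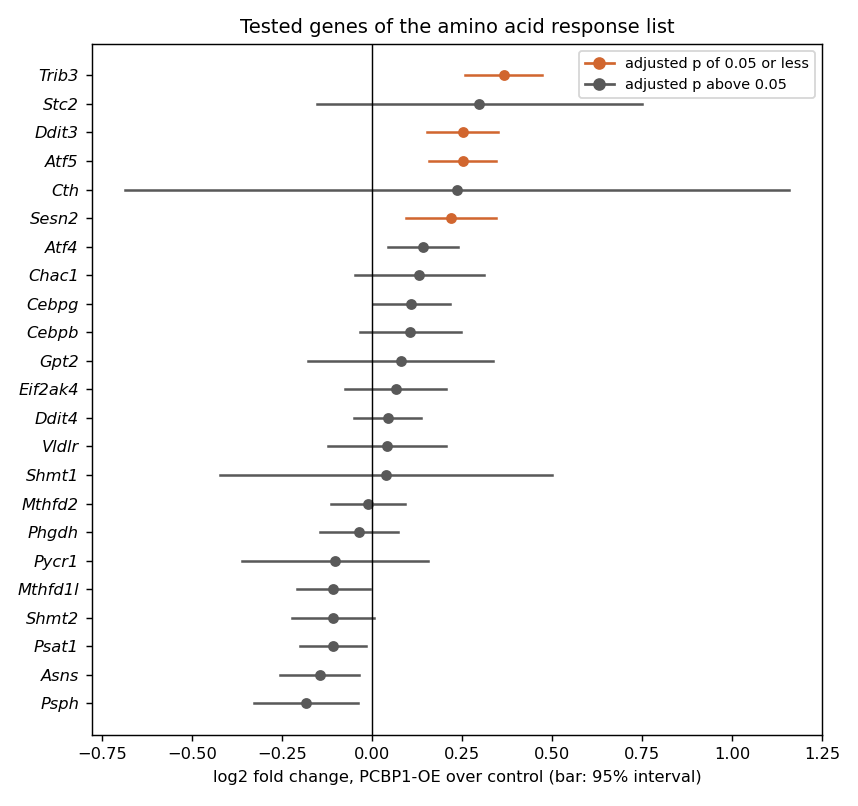
Log2 fold change of PCBP1-OE over control (points) with its 95% interval (bars) for 23 of the 24 testable genes of the amino acid response list, in order of size. Orange marks the 4 genes with an adjusted p of 0.05 or less, Trib3, Ddit3, Atf5 and Sesn2, and the lowest points plotted are Psph and Asns.

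In the sensing list, Fnip1, a partner of folliculin in the control of the Rag GTPases, was at 63.4, 68.3 and 61.2 CPM in the control libraries against 89.6, 76.2 and 82.1 in the PCBP1-OE libraries, which did not overlap (log2 fold change 0.36, SE 0.06, edgeR adjusted p = 0.00928). Its paralog Fnip2 was at 4.54, 2.68 and 3.88 CPM in the control libraries against 5.76, 6.44 and 5.31 in the PCBP1-OE libraries (log2 fold change 0.66, SE 0.19, edgeR adjusted p = 0.0455), and passed in 1 of the 6 fits that left out a library (0.0252 to 0.186). Eprs, the glutamyl-prolyl-tRNA synthetase, was the gene called in its list, at 455, 447 and 493 CPM in the control libraries against 536, 544 and 528 in the PCBP1-OE libraries (log2 fold change 0.20, SE 0.05, edgeR adjusted p = 0.0220), and passed in 2 of the 6 such fits (0.000901 to 0.12).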

How the data were processed

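RNA-seq of 6 libraries was used, with group and replicate read from the title. The table deposited by the authors holds raw read counts. Stranded poly-A libraries were trimmed by them (FASTX-Toolkit) and mapped by TopHat2 against Rnor_6.0, and uniquely mapped reads entered the count. The submitters' processing notes name GRCh38, although the gene identifiers are those of rat. Sources used here do not give the counting tool or its strand setting. Counts were tested with edgeR 4.0.16 in R 4.3.3 (quasi-likelihood test, TMM scaling, filterByExpr with minimum count 10 and minimum total 15), which kept 12624 genes and left out 7985, with Benjamini-Hochberg adjustment over all of them. Standard errors and 95% intervals were derived from its F statistic. CPM used TMM-scaled totals of the genes kept. Depth was 19730209 to 22315623 counts per library. Members and lists were chosen with earlier results of these data known.

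Every member is named, and values of every library are given for called members, Slc3 and expressed light chains, and the uncalled members with the largest changes. Naming by level per length, also planned, was not done, since lengths were not used. From each list up to 4 called genes with the smallest p are named, and others named beside them were chosen after their values were seen. List names without a row were sought by RefSeq synonym (GRCr8), which matched Pqlc2, Gatsl2 and Gatsl3. Alternatives tried: omission of each library in turn, a block for the replicate number, DESeq2 1.42.0, limma-voom (limma 3.58.1), the exact test of edgeR, scaling by RLE or upper quartile, and a filter either absent or set at 1 CPM in at least 3 libraries. The fits were tested on simulated data. A gene of the amino acid response list is counted with it but not reported here.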

Additional observations from a re-analysis of the deposited data

How the results depend on the processing

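Of the 21 expressed members, 12 kept the sign of their change in every alternative that gave them a value (13 for Slc7a3, which the stricter filter removed, and 14 for the others), and 3 passed an adjusted p of 0.05 in at least 1 fit. With 1 library left out, members called ranged from 0 to 2, those higher from 0 to 2 and those lower from 0 to 0. The 2 called without control replicate 3 were Slc38a2 and Slc3a2. Upper-quartile scaling called 1 member, 1 higher and 0 lower. No pairing by replicate number was seen in correlations of deviations from the group means. They were -0.0776, -0.0478 and -0.0362 for same-numbered libraries and -0.0147 to 0.0646 for differently numbered libraries. Deviations within a group sum to 0, which ties these values to each other, and pairing was not tested. With the replicate number as a block, 0 members were called, 0 higher and 0 lower, and 16 of all genes, with Slc38a2 at an adjusted p of 0.12 and Slc38a10 at 0.158. The cause of these changes was not tested.

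The lists together had 7 distinct genes called, 12 without the filter, 0 with the replicate block and 2 to 19 with 1 library left out. For sensing the block gave 0 and single omissions 1 to 6, and for the amino acid response 0 and 1 to 8. For tRNA synthetases the count of 1 became 2 with upper-quartile scaling, DESeq2 or the exact test, 3 without the filter, 0 with the block and 0 to 6 with 1 library left out. Over all genes 48 were called without control replicate 2 and 2860 without control replicate 3. Of the 9 members that changed sign in at least 1 alternative, Slc1a5 turned to 0.0042 with upper-quartile scaling, and with single libraries left out the log2 fold changes ranged from -0.040 to 0.014 for Slc1a5, -0.011 to 1.02 for Slc7a2, -0.26 to 0.38 for Slc7a4, -0.059 to 0.13 for Slc38a6, -0.044 to 0.041 for Slc38a7, -0.022 to 0.25 for Slc38a9, -0.10 to 0.18 for Slc36a1, -0.064 to 0.066 for Slc43a2 and -0.16 to 0.060 for Slc38a3. Depth limits most the members under 100 counts per library, of which Slc7a2 and Slc7a3 had 95% intervals that reached beyond 2-fold.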
